A study of Mus musculus with 27 samples.

Results

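The genes described here are 35 genes of blood and lymph vessel endothelium, the cells that line vessels. They were chosen by name as vessel markers and read from a table of 54532 genes measured in 27 libraries of laser-captured mouse thyroid. All 35 were matched to 1 row each, and 34 passed the filter on low counts in every comparison. Sox18 did not pass it. The study's title names radiation as the exposure. NCT was thyroid of control mice without exposure, NT was histologically normal thyroid next to abnormal tissue in exposed mice, and PL was proliferative lesion tissue from the same exposed animals. There were 9 animals to a group (6 females, 3 males) with 1 library each, and a replicate number shared by NT and PL marks a single mouse. The sources used here give no dose, strain or age, and every exposed mouse bore a lesion, so exposure and the presence of a lesion cannot be told apart when NT is set against NCT.

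Endothelial cells hold vessels together through junction proteins, read growth factors of the VEGF and angiopoietin families through receptor kinases, and take their identity from transcription factors of the ETS and SOX families. Thyroid follicles are wrapped in dense fenestrated capillaries, through which iodide enters and hormone leaves. Lymph vessels run beside them and are set apart by the transcription factor Prox1, the receptor Flt4 and the hyaluronan receptor Lyve1.

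The promoters of 3 members are shown because Adgrl4 and Tek were lower in lesions in a comparison below while Kdr, the main VEGF receptor, was not past the threshold in any. Each sequence is the 250 bases before the start of the RefSeq transcript on GRCm38.p6, written 5′ to 3′ on the strand of the gene, with the letters AGGAAG of an ETS family motif in capitals. The Adgrl4 window is chr3:151437632-151437881 on the plus strand, the Tek window chr4:94739039-94739288 on the plus strand and the Kdr window chr5:75978456-75978705 on the minus strand.
Adgrl4: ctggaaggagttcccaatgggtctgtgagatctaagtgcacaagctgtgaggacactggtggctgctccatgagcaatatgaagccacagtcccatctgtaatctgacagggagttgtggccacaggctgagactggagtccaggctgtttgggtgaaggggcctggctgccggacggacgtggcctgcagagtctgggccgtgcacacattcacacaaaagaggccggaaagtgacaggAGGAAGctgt
Tek: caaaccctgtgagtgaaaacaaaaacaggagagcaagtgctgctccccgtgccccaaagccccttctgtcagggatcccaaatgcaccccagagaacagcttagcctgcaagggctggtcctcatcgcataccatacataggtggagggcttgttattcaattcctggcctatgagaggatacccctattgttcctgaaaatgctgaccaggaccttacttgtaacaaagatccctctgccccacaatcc
Kdr: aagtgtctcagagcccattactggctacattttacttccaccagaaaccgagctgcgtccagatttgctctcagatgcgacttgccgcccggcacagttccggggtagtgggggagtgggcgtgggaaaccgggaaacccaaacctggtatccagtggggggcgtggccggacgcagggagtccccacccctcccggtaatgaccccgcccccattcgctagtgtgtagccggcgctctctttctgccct
AGGAAG was searched on both strands. It occurred once in the Adgrl4 window, starting at position -10 from the transcript start, and not in the windows of Tek and Kdr. Of the 35 members 15 had a window in the table, these 15 had 20 windows between them. AGGAAG was in 10 of the 20 member windows, belonging to 9 members, and in 29.5% of all 32851 windows of 250 bases. The letters AACAAT of a SOX family motif, also searched on both strands, were in 3 of the 20 member windows and in 9.42% of all windows. These matches describe letters only.

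Libraries held 2923851 to 14148601 counts, and the group medians were 4622595 (NCT), 7220957 (NT) and 6479022 (PL). Levels are CPM, counts scaled to a common library size with TMM factors over all 27 libraries. They are not divided by transcript length, because the libraries read the 3′ ends of transcripts. Pecam1, Cdh5, Tie1, Cldn5 and Egfl7, which define endothelium, were found in 27 of 27 libraries. The parathyroid hormone gene Pth exceeded 2000 CPM in 5 libraries (NCT 5 and 8, NT 7 and 9, PL 2), and the lipase gene Lipf reached 9930 CPM in NCT 9. The mean mitochondrial share was 13.98% in NCT, 10.8% in NT and 10.4% in PL.

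Lesions were set against normal tissue of the same mouse. Most endothelial genes lay slightly lower in lesions, and 1 gene, Sox17, lay far higher. Of 34 members tested 29 had a log2 fold change below 0, with a median of -0.36 against 0.00 over all genes. Past the threshold (adjusted p under 0.05 in edgeR's quasi-likelihood F test with the mouse as a block) were 3 members (8.82%), Sox17 higher and Podxl and Adgrl4 lower. Of all 14461 genes 3.08% passed, 1.76% higher and 1.31% lower. At an unadjusted p under 0.05 there were 19 members (55.9%), 16 lower and 3 higher, against 17.6% of all genes, 8.76% lower and 8.89% higher. In bulk tissue, fewer endothelial cells and less RNA per cell cannot be told apart.

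**Figure D1:**
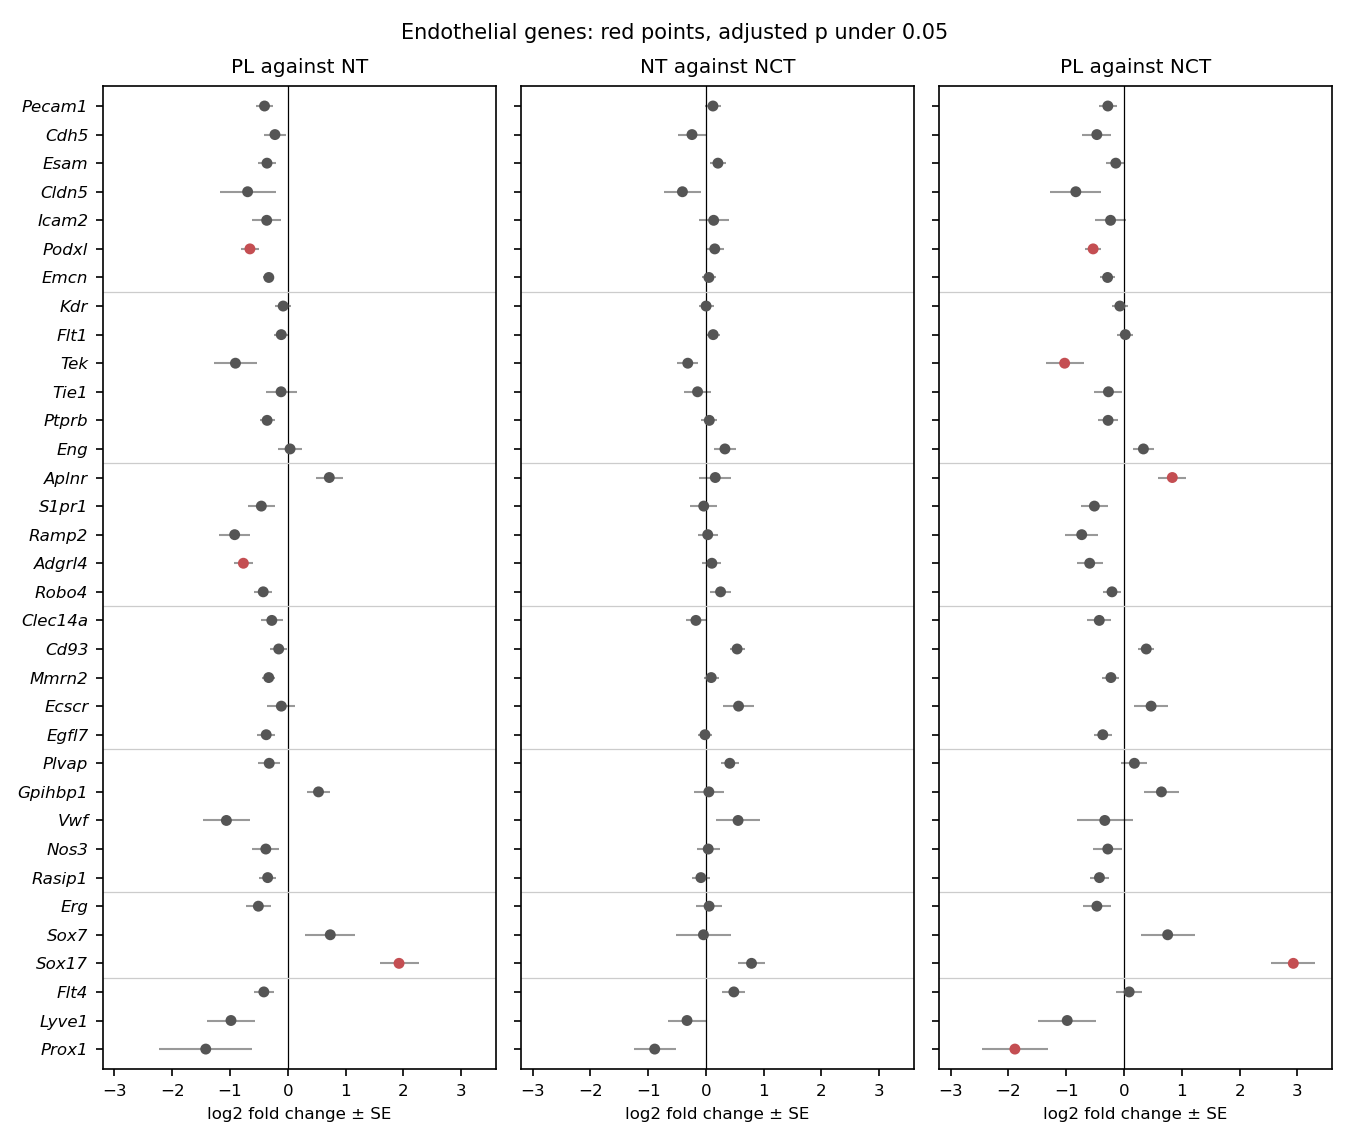
Log2 fold change and its standard error (x axis) of the 34 tested endothelial genes (rows, grouped by role) in 3 comparisons, from left to right PL against NT, NT against NCT and PL against NCT. Points in red passed an adjusted p of 0.05. Most points lie left of 0 in the left and right panels, and Sox17 stands far to the right at 1.93 and 2.93.

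The sum of the 35 members ran from 1653 to 2983 CPM in NT with a median of 2112, and from 1521 to 2690 CPM in PL with a median of 1696. It was 1659 to 2309 CPM in NCT with a median of 2055. The sum was lower in the lesion in 7 of 9 mice, and the groups overlapped. No member had NT and PL levels without overlap, against 0.118% of all genes (0.0692% higher in PL, 0.0484% lower). Lesions differed widely among themselves. PL replicate 5 held the highest lesion level of 19 of 34 members and PL replicate 3 the lowest of 12. Their summed levels were 2690 and 1521 CPM.

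Junction and surface proteins come first. All 7 of this role lay below 0 in lesions against NT, with a median of -0.36, and 1 passed. Podxl, a sialomucin of the endothelial surface, is on chromosome 6 (31519488 to 31563981, minus strand). It was at 131, 166 and 199 CPM in NCT (lowest, median, highest), at 81.4, 183 and 291 in NT and at 85.2, 112 and 171 in PL. Lesions were low in 8 of 9 mice, mouse 6 being the exception with the lowest NT level, and the groups overlapped. Podxl fell by 0.65 on the log2 scale (SE 0.15, adjusted p = 0.0311) against NT and by 0.53 (SE 0.14, adjusted p = 0.0132) against NCT, and lay at 0.15 (SE 0.16, adjusted p = 0.751) in NT against NCT. The call against NT ended without any 1 of mice 1, 2, 3, 4, 7, 8 and 9 (adjusted p up to 0.0812). The call against NCT stood without any 1 library.

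Pecam1, an adhesion molecule of endothelial contacts, ran at 42.6, 58.4 and 76.7 CPM in NCT (lowest, median, highest), at 46.5, 68.7 and 95.6 in NT and at 38.0, 50.5 and 75.3 in PL. It was lower in the lesion in 7 of 9 mice (-0.40, SE 0.15, adjusted p = 0.175), with overlapping groups. Cdh5, the cadherin of endothelial junctions, was at 11.3, 19.8 and 39.1 CPM in NCT, 6.95, 19.9 and 25.2 in NT and 7.74, 13.6 and 26.4 in PL, lower in 5 of 9 mice (-0.22, SE 0.19, adjusted p = 0.602). Cldn5, a tight junction claudin, was scarce, at 2.23, 5.96 and 12.1 CPM in NCT, 1.74, 3.98 and 9.56 in NT and 0.906, 2.53 and 8.34 in PL. Its difference of -0.69 (SE 0.48, adjusted p = 0.501) came with a wide error, and lesions were low in 6 of 9 mice. Emcn, a sialomucin of capillaries and veins, was the 1 member lower in all 9 mice (-0.33, SE 0.10, adjusted p = 0.0783), where 1.76% of genes were so. Esam and Icam2, further adhesion molecules, were both at -0.36 (adjusted p = 0.268 and 0.503).

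Of 6 growth factor receptors and their phosphatase 5 lay below 0. None passed against NT in edgeR or in the Wald test of DESeq2, 2 were lower at an unadjusted p under 0.05, and their median was -0.11. Kdr was at 267, 318 and 464 CPM in NCT, at 231, 331 and 479 in NT and at 237, 288 and 492 in PL. Flt1, the decoy receptor of VEGF, was at 235, 318 and 358 CPM in NCT, 263, 332 and 515 in NT and 210, 307 and 487 in PL. Groups overlapped almost entirely for both genes. In PL against NT the log2 fold change of Kdr was -0.08 (SE 0.14, adjusted p = 0.818) and that of Flt1 -0.11 (SE 0.13, adjusted p = 0.710). Tek, the angiopoietin receptor on chromosome 4 (94739289 to 94874976, plus strand), was at 14.8, 19.6 and 39.2 CPM in NCT, 13.2, 16.01 and 23.1 in NT and 1.48, 8.53 and 19.99 in PL. Lesions were low in 7 of 9 mice, with replicate 3 far below the others. Tek fell by 1.03 (SE 0.33, adjusted p = 0.0478) against NCT, and against NT it was at -0.91 (SE 0.37, adjusted p = 0.208). The call against NCT stood in 4 of 18 fits that left out 1 library, those without PL replicate 1, 3, 4 or 5, with adjusted p up to 0.103 in the others. Tie1, the orphan partner of Tek, was at -0.12 against NT, Ptprb, the phosphatase that restrains Tek, at -0.36 and Eng, a co-receptor for BMP ligands, at 0.04 (adjusted p = 0.872, 0.148 and 0.949).

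**Figure D2:**
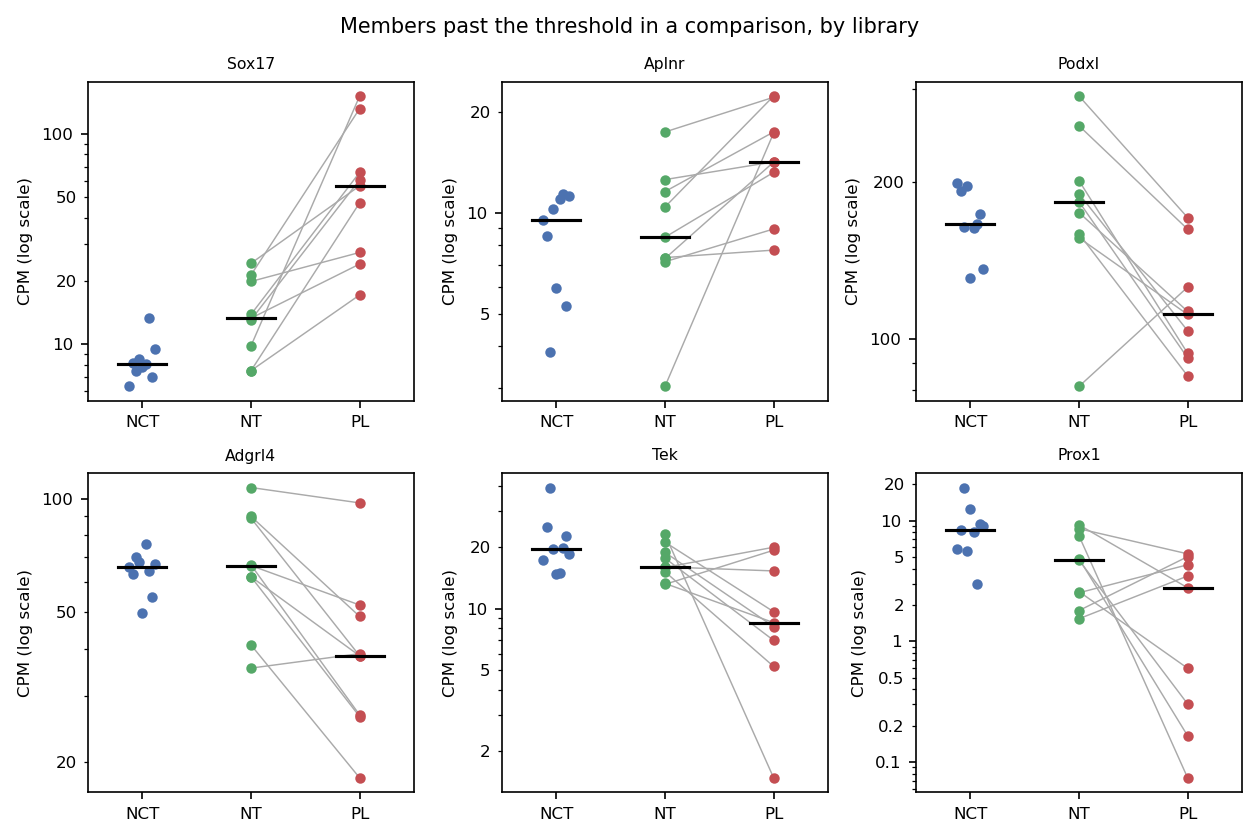
Level in CPM (y axis, log scale) of the 6 members past the threshold in a comparison, in NCT, NT and PL. Each point is 1 library, black bars are medians and grey lines join NT and PL of the same mouse. Sox17 and Aplnr go up along 9 of 9 lines, and Podxl and Adgrl4 go down along 8 of 9.

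Of 5 receptors coupled to G proteins, accessories and guidance receptors 4 lay below 0 against NT, with a median of -0.46, and 1 passed. Adgrl4, an adhesion receptor of endothelium on chromosome 3 (151437887 to 151545086, plus strand), was at 49.7, 66.1 and 75.7 CPM in NCT, 35.5, 66.5 and 107 in NT and 18.1, 38.2 and 97.6 in PL. It was lower in the lesion in 8 of 9 mice, and lesion replicate 5 lay well above the other lesions. Adgrl4 fell by 0.77 (SE 0.16, adjusted p = 0.0225) against NT, and lay at -0.59 (SE 0.22, adjusted p = 0.0952) against NCT. The call against NT ended without any 1 of mice 2, 3, 4, 7 and 8 (adjusted p up to 0.0698). Without PL replicate 5 the difference from NCT was -0.84 (adjusted p = 0.00209).

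Aplnr, the apelin receptor on chromosome 2 (85136225 to 85139923, plus strand), lay above 0. It was at 3.85, 9.54 and 11.4 CPM in NCT, 3.03, 8.46 and 17.5 in NT and 7.74, 14.2 and 22.4 in PL. Lesions were high in 9 of 9 mice, as in 1.83% of all genes, while groups overlapped. Against NCT Aplnr rose by 0.84 (SE 0.24, adjusted p = 0.0304), and against NT it was at 0.72 (SE 0.23, adjusted p = 0.108). The call against NCT ended without PL replicate 3 or 5 or NCT replicate 5 or 8 (adjusted p up to 0.0624). Ramp2, which forms the adrenomedullin receptor with Calcrl, was at -0.92 (SE 0.27, adjusted p = 0.0802) against NT, Robo4, a guidance receptor that steadies vessels, at -0.42 and S1pr1, a receptor for sphingosine 1-phosphate, at -0.46 (adjusted p = 0.150 and 0.339). Robo4 was lower in 8 of 9 mice, as were Mmrn2, Podxl, Adgrl4 and Vwf. With Emcn these were 6 of 34 members (17.6%) lower in at least 8 of 9 mice, against 6.57% of all genes, and 6.84% were higher in at least 8 of 9 mice.

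Surface and matrix proteins of growing vessels lay slightly lower, with all 5 below 0 against NT, a median of -0.28 and none past the threshold in edgeR or DESeq2. At an unadjusted p under 0.05 there were 2, both lower. They were Mmrn2, a matrix ligand (-0.33), Egfl7, a secreted matrix factor (-0.37), Clec14a and Cd93, lectin-like receptors that bind Mmrn2 (-0.28 and -0.16), and Ecscr (-0.11).

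Of 5 genes of capillary function 4 lay below 0 against NT, with a median of -0.35. None passed in edgeR or DESeq2, and at an unadjusted p under 0.05 there were 2 lower and 1 higher. Gpihbp1, which carries lipoprotein lipase across capillaries, was at 9.07, 14.9 and 31.5 CPM in NCT, 9.35, 17.97 and 31.1 in NT and 14.6, 19.02 and 65.5 in PL. It was higher in the lesion in 7 of 9 mice, most in replicate 9 (0.53, SE 0.21, adjusted p = 0.180). Vwf, the clotting factor stored by endothelium, was at 1.13, 5.07 and 17.1 CPM in NCT, 4.49, 9.33 and 14.1 in NT and 0.398, 3.62 and 10.2 in PL. It was lower in 8 of 9 mice at -1.06 (SE 0.41, adjusted p = 0.180). Plvap, the diaphragm protein of fenestrated capillaries, was at 78.9, 132 and 180 CPM in NCT, 127, 149 and 264 in NT and 83.3, 125 and 278 in PL, lower in 7 of 9 mice (-0.32, SE 0.19, adjusted p = 0.413). Groups overlapped for these 3 genes. Nos3, the endothelial nitric oxide synthase, was at -0.38 and Rasip1, a factor of lumen formation, at -0.35 (adjusted p = 0.426 and 0.211).

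**Figure D3:**
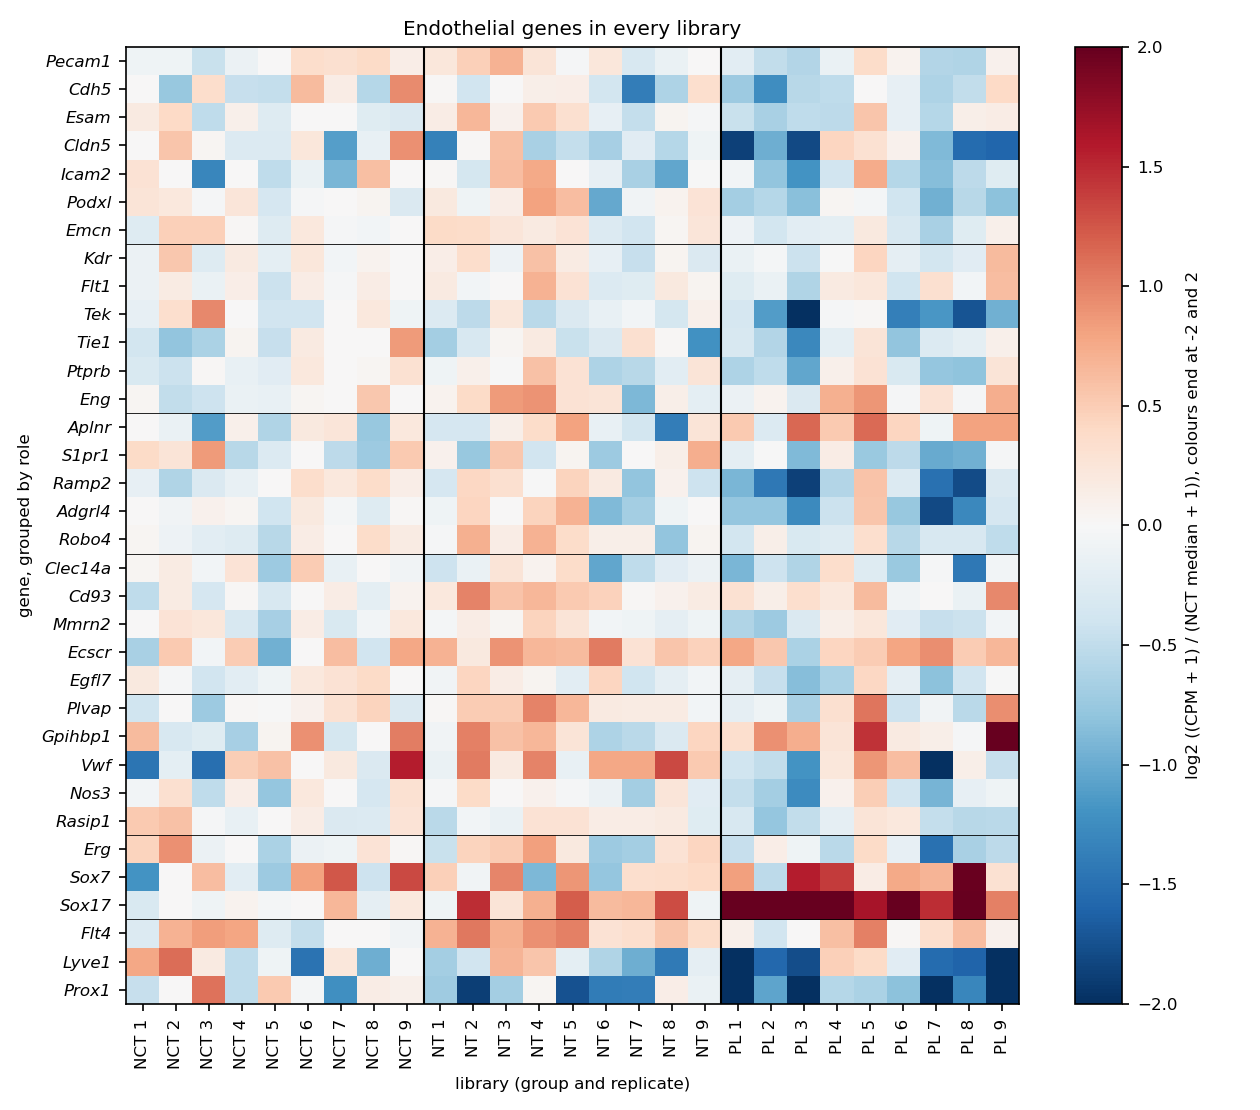
Level of each tested member (rows, grouped by role) in every library (columns), as log2 of its CPM plus 1 over the NCT median plus 1. Red is above and blue below the NCT median. Sox17 is red across the PL columns, PL 5 is the reddest lesion for most rows, and PL 3 is among the bluest.

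Transcription factors held the largest change. Sox17, a SOX family factor of arterial endothelium that is also known from endoderm, is on chromosome 1 (4490931 to 4497354, minus strand). Its level was 6.30, 8.05 and 13.4 CPM in NCT (lowest, median, highest), 7.48, 13.3 and 24.3 in NT and 17.2, 56.7 and 152 in PL. Lesions were high in 9 of 9 mice, most in replicates 3 and 8 at 152 and 132 CPM and least in replicate 9. No lesion overlapped with NCT, while the lowest lesion lay within the range of NT. Sox17 was the 1 member of 34 (2.94%) whose PL and NCT levels did not overlap, against 1% of all genes, 0.548% higher and 0.457% lower. Sox17 rose by 1.93 (SE 0.34, adjusted p = 0.0159) against NT and by 2.93 (SE 0.38, adjusted p = 8.308e-05) against NCT, and lay at 0.79 (SE 0.24, adjusted p = 0.205) in NT against NCT.

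The rise of Sox17 against NT lost its call without mouse 8 (1.83, adjusted p = 0.0506), in females alone (2.06, adjusted p = 0.162) and with the adipocyte score as covariate (1.90, adjusted p = 0.0721). Against NCT it stood without any 1 library. Gm37587, which has exons on the opposite strand of Sox17, held 76 counts over all libraries, with medians of 0 CPM in NCT and NT and 0.594 CPM in PL. The lesion with the most Sox17, replicate 3, was the one with the lowest level of 12 members. In replicate 5, with the highest level of 19 members, Sox17 was at 27.3 CPM. Replicate 8, next to replicate 3 in Sox17, held the lowest level of 4 members and the highest of 1. The cell that made Sox17 was not tested.

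The other SOX and ETS factors did not pass. Sox7, a close relative, was at 0.74 (SE 0.43, adjusted p = 0.405) against NT and was scarce, with a highest level of 12.7 CPM. Sox18, the third gene of that subfamily, had at most 11 counts in a library and was at 0 in 7 NCT, 6 NT and 6 PL libraries, so no change in it was detectable at this depth. Erg, an ETS factor that keeps endothelial identity, was at 9.84, 15.8 and 30.9 CPM in NCT, 9.21, 19.6 and 28.7 in NT and 4.98, 11.3 and 20.9 in PL. Its level was lower in the lesion in 7 of 9 mice, with overlapping groups (-0.51, SE 0.22, adjusted p = 0.232).

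The 3 lymphatic members lay below 0 in PL against NT, with wide scatter among lesions and none past the threshold there. Prox1, the master factor of lymphatic identity on chromosome 1 (190118035 to 190170714, minus strand), was at 2.98, 8.34 and 18.8 CPM in NCT, 1.54, 4.70 and 9.23 in NT and 0.0737, 2.78 and 5.31 in PL. In 9 of 9 lesions it lay below the NCT median, and the lowest lesion, replicate 9, had 1 count. Prox1 fell by 1.89 (SE 0.58, adjusted p = 0.0397) against NCT, and against NT it was at -1.42 (SE 0.80, adjusted p = 0.391), lower in 6 of 9 mice. The call against NCT stood in 8 of 18 fits that left out 1 library, with adjusted p up to 0.0785. It ended without any 1 of PL replicates 1, 3, 7 and 8 and NCT replicates 2, 3, 5, 6, 8 and 9. Against NCT 4 of 6 C cell markers fell too and 1 rose, where 4.62% of all genes fell and 5.45% rose. Which cells made Prox1 was not tested.

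Lyve1 was at 7.15, 21.6 and 48.2 CPM in NCT, 7.52, 16.4 and 35.1 in NT and 1.69, 6.64 and 30.3 in PL, lower in the lesion in 7 of 9 mice (-0.98, SE 0.42, adjusted p = 0.248). Flt4, the receptor for VEGF-C, was at 9.54, 13.7 and 25.4 CPM in NCT, 16.9, 22.8 and 29.8 in NT and 10.3, 14.8 and 28.7 in PL, also lower in 7 of 9 mice (-0.41, SE 0.17, adjusted p = 0.211). Groups overlapped for both. Against NCT Flt4 was at 0.09 (adjusted p = 0.866) and Lyve1 at -0.98 (adjusted p = 0.249). Some macrophages also carry Lyve1. Of 11 tested macrophage markers 11 lay below 0 in PL against NT, with a median of -0.38. Of these 1 fell (Cd163), against 1.31% of all genes. Their summed level was 335 to 1444 CPM in NT and 194 to 904 in PL. In PL against NCT 4 of the 11 macrophage markers lay below 0, with a median of 0.05 and none called. Their part in the level of Lyve1 was not tested. The 10 other lymphatic genes listed had a summed median of 209 CPM in NT and 214 in PL. Of the 7 tested none passed against NT, with a median of -0.45 and none at an unadjusted p under 0.05. The smallest p among them belonged to Pdpn, a lymphatic and stromal sialomucin (-0.45, adjusted p = 0.376), and Fgl2, a secreted fibrinogen-like protein (1.14, adjusted p = 0.392). Against NCT none passed in edgeR, with 1 higher and 1 lower at an unadjusted p under 0.05. These were Fgl2 at 2.04 (adjusted p = 0.0540 in edgeR and 0.00891 in the Wald test of DESeq2) and Reln, a secreted glycoprotein of lymphatic endothelium, at -1.33 (adjusted p = 0.123).

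Normal tissue of exposed mice was set against thyroid of mice that were not exposed. No member passed the threshold in edgeR, where 0.0277% of 14447 genes did, 0.00692% higher and 0.0208% lower. At an unadjusted p under 0.05 there were 6 of 34 members (17.6%), 5 higher and 1 lower. Of all genes 11.6% were so, 5.6% higher and 5.98% lower. The Wald test of DESeq2 called 1 member, Cd93, and 149 of the 14213 genes it tested. Members ran from -0.89 to 0.79 with a median of 0.06, 23 of them above 0. Cd93 was at 74.1, 105 and 118 CPM in NCT and at 107, 145 and 211 in NT, where 9 of 9 libraries lay above the NCT median (0.54, SE 0.13, adjusted p = 0.114). No member had NT and NCT levels without overlap, against 0.0623% of all genes (0.0208% higher in NT, 0.0415% lower). Flt4 (0.48), Ecscr (0.57) and Plvap (0.41) were higher, with 9, 9 and 8 of 9 NT libraries above the NCT median and adjusted p of 0.349, 0.411 and 0.295.

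These differences moved with other features of the libraries. Adipocyte markers summed to 359 to 2529 CPM in NCT and 108 to 596 in NT, with 8 of 8 tested below 0 and none called. Their median log2 fold change was -1.51. At an unadjusted p under 0.05, 7 of the 8 were lower, against 5.98% of all genes. With their score as a covariate the median of the members was 0.36, and in females alone it was 0.175. The groups also differed in mouse number series, the opening digits of the mouse number. Within the series that held 4 mice of each group, the median was -0.25, and with the series as covariate it was -0.021. In that series NT 7 and 9 and NCT 8 were rich in Pth and NCT 9 in Lipf. Its males were NCT 6, 8 and 9 and NT 8 and 9. The part of each of these features was not tested. Egfl7 was at -0.02, while Agpat2, whose exons overlap it on the opposite strand, fell by 1.40 on the log2 scale (adjusted p = 0.0164).

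Lesions were also set against thyroid of mice that were not exposed, a comparison that shares its lesions with the first and its controls with the second. Past the threshold were 5 of 34 members (14.7%), Sox17 and Aplnr higher and Podxl, Tek and Prox1 lower, against 10.1% of 14234 genes, 5.45% higher and 4.62% lower. The median of the members was -0.28, and 24 lay below 0. It was -0.15 in females alone and -0.047 with the adipocyte score as covariate. At an unadjusted p under 0.05 there were 14 members (41.2%), 4 higher and 10 lower, against 23.6% of all genes, 12.3% higher and 11.2% lower. Within the mouse number series that held 4 mice of each group the median was -0.49. There Tek passed (-1.35, adjusted p = 0.0356), and Sox17 was at 2.61 (adjusted p = 0.0809).

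Whether the difference between lesion and normal tissue differed between males and females was tested as an interaction. Of 34 members 0 passed in edgeR, with 0 at an unadjusted p under 0.05, and the Wald test of DESeq2 called 0. Of all 14461 genes 0% passed, and 2.77% had an unadjusted p under 0.05, 1.35% with a higher and 1.42% with a lower value.

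Partner genes of these pathways were counted from lists by role. Of all genes 1.76% rose and 1.31% fell in PL against NT, and 5.45% rose and 4.62% fell against NCT. At an unadjusted p under 0.05, 8.89% were higher and 8.76% lower in PL against NT. In all 9 mice 1.83% were higher in the lesion and 1.76% lower. PL and NCT levels without overlap were higher in 0.548% and lower in 0.457%. Of 10 VEGF and angiopoietin ligands and co-receptors none passed in PL against NT in edgeR (median -0.15), and at an unadjusted p under 0.05 there were 1 higher and 2 lower. Vegfa, the main ligand of Kdr, was at 0.15 (adjusted p = 0.735), Nrp2, a co-receptor, at -0.51 (adjusted p = 0.129) and Angpt2, the antagonist ligand of Tek, at 0.77 (adjusted p = 0.208). Against NCT Nrp2 (-0.61, adjusted p = 0.0178) and the ligand Vegfb (-0.46, adjusted p = 0.0432) fell, and Vegfa was at 0.38 (adjusted p = 0.218). The call of Nrp2 stood without any 1 library. That of Vegfb stood in 5 of 18 fits that left out 1 library, those without PL 2 or 5 or NCT 2, 4 or 7 (adjusted p up to 0.102 in the others).

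Of 10 Notch pathway genes 1 rose in PL against NT and none fell. Their median was 0.20, with 3 below 0. At an unadjusted p under 0.05 there were 3 higher and 1 lower. Notch1, a receptor of arterial specification, was at 32.5, 38.1 and 57.8 CPM in NCT, 23.6, 36.7 and 47.5 in NT and 45.5, 52.3 and 80.9 in PL. It was higher in the lesion in 8 of 9 mice (0.61, SE 0.13, adjusted p = 0.0208). Against NCT Notch1 (0.45, adjusted p = 0.0313), its ligand Jag1 (0.84, adjusted p = 0.0195) and its target Hey1 (0.83, adjusted p = 0.0181) rose. The call of Notch1 ended without mouse 7 or 8 against NT (adjusted p up to 0.0634), and without PL 8 or 9 or NCT 1, 2, 4 or 8 against NCT (up to 0.0605). Those of Jag1 and Hey1 stood without any 1 library. These genes are also made by epithelial cells, and the cell that made them was not tested.

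Of 14 tested arterial, venous and tip cell genes 1 rose in PL against NT and none fell. Their median was -0.12, with 8 below 0. At an unadjusted p under 0.05 there were 2 higher and 2 lower. Efnb2, the ephrin of arterial endothelium, was at 14.3, 23.8 and 37.8 CPM in NCT, 17.4, 23.0 and 31.1 in NT and 24.8, 34.7 and 55.4 in PL, higher in 8 of 9 mice (0.59, SE 0.15, adjusted p = 0.0445). The call stood only without mouse 2 or 5 in the 9 fits that left out 1 mouse (adjusted p up to 0.107 in the others). Against NCT Efnb2 (0.58, adjusted p = 0.0483), the adhesion molecule Vcam1 (1.70, adjusted p = 0.00799) and the basement membrane collagen Col4a1 (0.51, adjusted p = 0.00861) rose. This call of Efnb2 stood in 6 of 18 fits, those without PL 1, 2, 5 or 6 or NCT 5 or 8 (adjusted p up to 0.0974 in the others), and those of Vcam1 and Col4a1 stood without any 1 library.

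Of 14 partners of the BMP, apelin, adrenomedullin and sphingosine receptors 1 rose in PL against NT and none fell. Their median was -0.10, with 8 below 0. At an unadjusted p under 0.05 there were 3 higher and 2 lower. Spns2, which exports sphingosine 1-phosphate, the ligand of S1pr1, was at 20.8, 27.4 and 45.4 CPM in NCT, 24.0, 39.95 and 49.4 in NT and 34.95, 55.6 and 113 in PL, higher in 9 of 9 mice (0.68, SE 0.17, adjusted p = 0.0476). The call stood in 2 of 9 fits that left out 1 mouse, those without mouse 5 or 6 (adjusted p up to 0.130 in the others). Against NCT Spns2 (1.09, adjusted p = 0.00124), Sphk1, which makes that lipid (2.31, adjusted p = 0.0105), and Smad1, a BMP signal carrier (0.66, adjusted p = 0.00900), rose. These 3 calls stood without any 1 library. Sphk1 was scarce in NCT, with a lowest level of 0 and a median of 2.48 CPM, against a median of 14.2 in PL. Its log2 fold change ran from 1.38 to 2.90 over the alternatives.

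**Figure D4:**
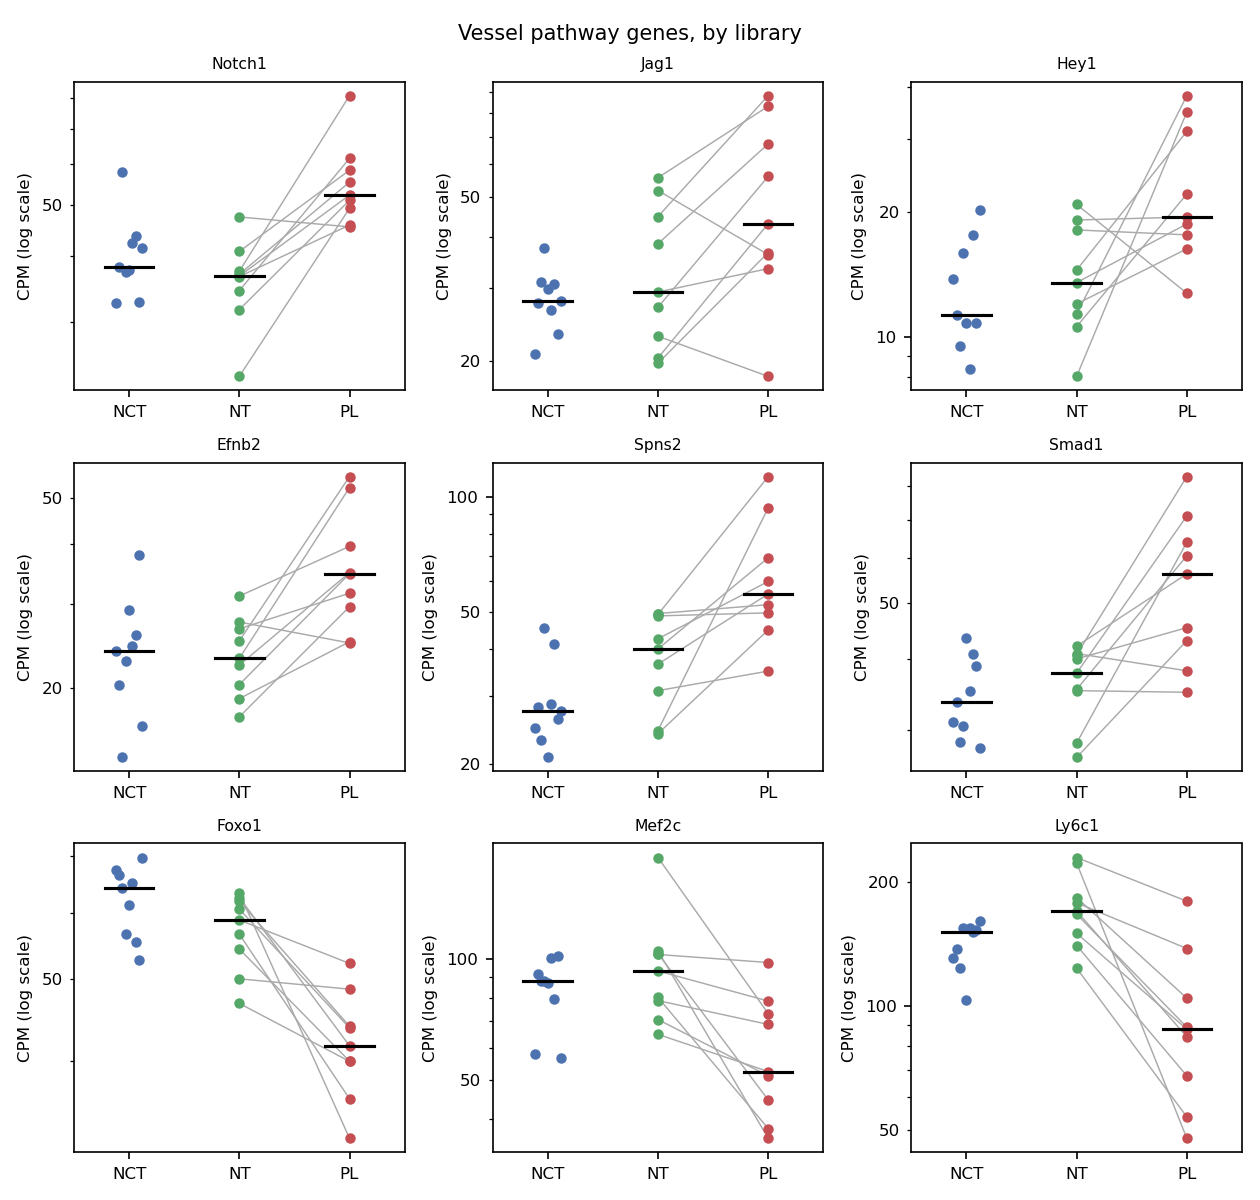
Level in CPM (y axis, log scale) of 9 partner genes of vessel pathways in NCT, NT and PL. Each point is 1 library, black bars are medians and grey lines join NT and PL of the same mouse. Notch1, Jag1, Hey1, Efnb2, Spns2 and Smad1 have higher lesion medians, and Foxo1, Mef2c and Ly6c1 have lower ones.

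Of 14 other transcription factors of endothelium 2 fell in PL against NT and none rose. Their median was -0.19, and at an unadjusted p under 0.05 there were 5 lower and 2 higher. Foxo1, which keeps endothelial cells quiet, was at 52.8, 64.2 and 69.7 CPM in NCT, 46.8, 58.8 and 63.3 in NT and 32.4, 41.7 and 52.2 in PL. It was lower in 9 of 9 mice, and no lesion overlapped with NCT (-0.45, SE 0.11, adjusted p = 0.0435 against NT, and -0.57, SE 0.11, adjusted p = 0.00182 against NCT). Mef2c fell by 0.72 (SE 0.17, adjusted p = 0.0334) against NT and was lower in 9 of 9 mice. Of 9 fits that left out 1 mouse, Foxo1 was called against NT in 2, those without mouse 2 or 5, and Mef2c in 4, those without mouse 1, 5, 6 or 9. In the others their adjusted p reached 0.110 and 0.0855, while Foxo1 against NCT stood without any 1 library. Against NCT Nr2f2, the venous factor, fell by 0.48 (adjusted p = 0.0429) and Hhex, a factor of both thyroid and blood vessels, rose by 0.65 (adjusted p = 0.0392). Nr2f2 kept its call in 5 of 18 fits, without PL 4, 5 or 6 or NCT 1 or 4. Hhex kept it in 8, without PL 2, 4, 5, 7 or 9 or NCT 1, 3 or 4. In the others their adjusted p reached 0.0887 and 0.0797. Fibroblast markers were also lower against NCT, with 3 of 7 fallen, 5 below 0 and a median of -0.86, where 4.62% of all genes fell. Which cells made these transcription factors was not tested.

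Of 19 other pan-endothelial genes tested 2 fell in PL against NT and none rose, with a median of -0.44. At an unadjusted p under 0.05 there were 8 lower and none higher. Ly6c1, a surface antigen with a near-identical neighbour that makes its counts uncertain, was at 103, 151 and 161 CPM in NCT, 124, 170 and 229 in NT and 47.7, 87.8 and 180 in PL, lower in 9 of 9 mice (-0.96, SE 0.16, adjusted p = 0.00863). Its call stood without any 1 mouse. Exoc3l2 fell by 0.60 (SE 0.15, adjusted p = 0.0436), a call that stood only without mouse 5 in the 9 fits that left out 1 mouse (adjusted p up to 0.114 in the others). Against NCT Slc9a3r2 (-0.83), the caveolae genes Cavin2 (-1.13) and Cav1 (-0.93) and the surface protein Tm4sf1 (-0.58) fell, with adjusted p of 0.00333, 0.0372, 0.0459 and 0.0482. The call of Slc9a3r2 stood without any 1 library. Of 18 such fits Cavin2 was called in 8, without PL 4, 5, 6 or 7 or NCT 3, 4, 5 or 7. Cav1 was called in 5, without PL 4 or 5 or NCT 1, 4 or 5, and Tm4sf1 in 3, without PL 4 or 5 or NCT 1. In the other fits their adjusted p reached 0.0710, 0.0868 and 0.101.

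In NT against NCT no gene of these 7 partner lists passed in edgeR, where 0.0277% of all genes did. At an unadjusted p under 0.05, 5.6% of all genes were higher and 5.98% lower. Of the 14 tested arterial, venous and tip cell genes 5 were higher, among them the adhesion molecule Icam1 (0.71, SE 0.23, adjusted p = 0.254). So were 4 of the 14 receptor partners, while 1 of those was lower, the lipase Lpl that Gpihbp1 carries (-1.01, SE 0.26, adjusted p = 0.149). The Wald test of DESeq2 called Lpl (adjusted p = 0.00433). The other genes named by the same rule lay on both sides of 0. Higher in NT were the lymphatic genes Pdpn (0.80) and Stab1 (0.38), the transcription factors Elk3 (0.40) and Klf4 (0.28), Ramp3 (0.52), Exoc3l2 (0.50), Ly6c1 (0.30), Col4a2 (0.39), Jag1 (0.28) and Vegfa (0.17). Lower were Hes1, a Notch target (-0.41), and Vegfb (-0.33). Their adjusted p ran from 0.207 (Pdpn) to 0.649 (Vegfa).

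Markers of several other cell types also lay lower in PL against NT. Of all genes 1.31% fell there, and 8.76% were lower at an unadjusted p under 0.05. Of 7 fibroblast markers 7 lay below 0 with a median of -1.05, none called and 4 lower at an unadjusted p under 0.05, and their summed level was 1359 to 3585 CPM in NT and 581 to 3211 in PL. Of 12 pericyte and smooth muscle markers 9 lay below 0, with 1 fallen (Myl9). At an unadjusted p under 0.05 there were 4 lower and none higher. The sums were 596 to 1064 CPM in NT and 505 to 1007 in PL. Of 8 adipocyte markers 8 lay below 0 with none called and 0 at an unadjusted p under 0.05, at 108 to 596 CPM in NT and 8.91 to 785 in PL. Of 5 tested red blood cell markers 5 lay below 0 with none called and 0 at an unadjusted p under 0.05, at 3220 to 18169 CPM in NT and 1872 to 17432 in PL. Platelet markers, which bear on Pecam1 and Vwf, summed to 27.8 to 68.4 CPM in NT and 21.4 to 63.2 in PL. The defining platelet gene Gp1ba was at 0 in 9 NCT, 9 NT and 7 PL libraries.

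Of all genes 1.31% fell and 1.76% rose in PL against NT. Of 6 C cell markers 4 fell, and their summed median was 1517 CPM in NT and 111 in PL, with PL replicate 2 at 18389. Of 5 airway markers 5 lay below 0 with a median of -2.71 and 3 fell, and their summed median was 992 CPM in NT and 50.4 in PL. Of 10 thyroid follicular cell markers 9 lay above 0 with a median of 0.23 and 1 rose. At an unadjusted p under 0.05 there were 4 higher and none lower, against 8.89% of all genes higher. The sums of these markers, led by thyroglobulin (Tg, median 27809 CPM in NT and 21616 in PL), were 13528 to 42910 CPM in NT and 12819 to 36692 in PL. Lesion replicate 5, where 19 members were highest, also held the highest lesion sums of fibroblast, pericyte, adipocyte and red blood cell markers. With the adipocyte score as a covariate the median of the members in PL against NT was -0.34 and none passed, and with the thyroid follicular score it was -0.41 and Sox17 and Adgrl4 passed. After removal of mice 2, 7 and 9, in which NT or PL was rich in Pth, the median was -0.36, and Sox17 alone passed (2.36, adjusted p = 0.0470). Of all genes 113, 207 and 95 passed in these 3 fits, against 445 in the main fit. The part of the other cell types was not tested.

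**Figure D5:**
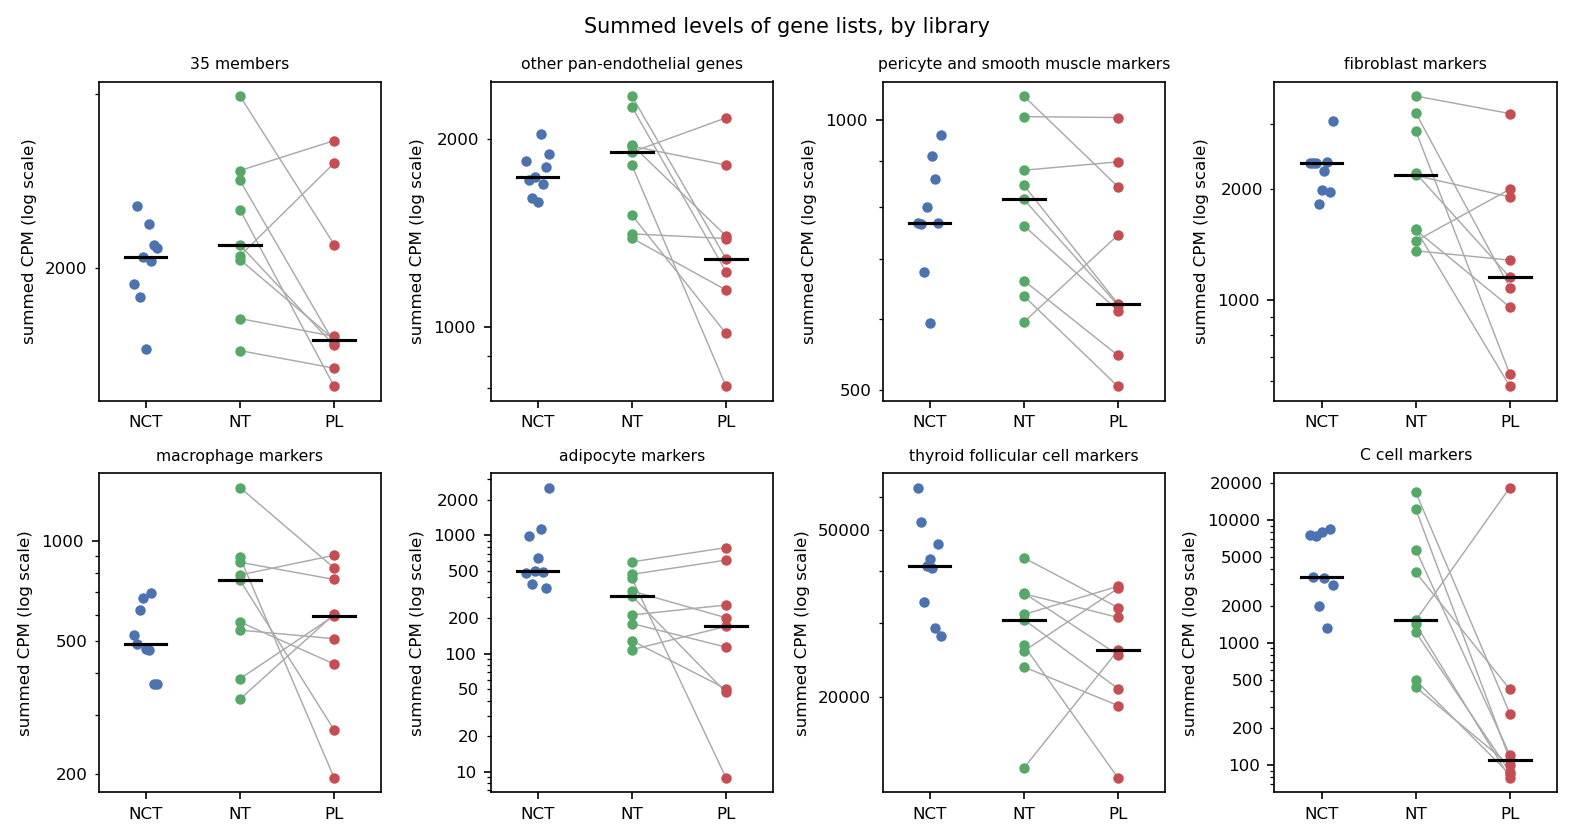
Summed CPM (y axis, log scale) of the 35 members, of 20 other pan-endothelial genes and of marker lists of 6 other cell types in NCT, NT and PL. Each point is 1 library, black bars are medians and grey lines join NT and PL of the same mouse. The lesion median of the 35 members is 1696 CPM against 2112 in NT, and the lists of fibroblast, adipocyte and C cell markers are lower in many lesions too.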

How the data were processed

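Counts of 3′ end reads (QuantSeq) from laser-captured mouse thyroid were used as the authors deposited them, whole numbers per gene without normalization. STAR, featureCounts, DESeq2 and the build GRCm38 are named in the submitters' processing notes, without versions. The strand setting of counting, which decides whether genes overlapping on opposite strands were told apart, is not given in the sources used here. It touches 7 members (Egfl7, Eng, Sox17, Prox1, Ecscr, Nos3 and Rasip1), and 3 members (Egfl7, Ramp2 and Rasip1) overlap a gene on their own strand.

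Of 54532 rows, 54495 matched a name in GENCODE M21, and the other 37 held 0.00428% of counts. Coordinates are from that annotation. Total counts per library, given with the results, set the precision. Groups and mice came from the labels.

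Each comparison was fitted over all genes in edgeR 4.0.16 (R 4.3.3) by the quasi-likelihood test, using TMM factors, filterByExpr with a minimum count of 10 and robust estimation. The threshold was a Benjamini-Hochberg adjusted p of 0.05. PL against NT kept the mouse as a block. Standard errors are approximate, being the log2 fold change divided by the root of the F statistic. The fit was tested on simulated data. Alternatives were DESeq2 1.42.0 (size factors and Wald test), other filters, removal of the 10 most abundant genes, libraries left out, females only, the fit without the block, 1 fit of all 27 libraries, and sex, mouse number series or marker scores as covariates. A fit within the mouse number series that held 4 mice of each group was added after the data were seen.

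Pairing rests on the mouse numbers. As a check, NT and PL of a mouse, each centred on its group, had correlations of -0.0162 to 0.213 (mean 0.13, with 5 of 9 above 0.1).

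The members and lists were chosen with earlier results of these data known. Levels by library are given for each member past the threshold in a comparison and for Pecam1, Cdh5, Kdr, Flt1, Plvap, Cldn5, Vwf, Gpihbp1, Erg, Sox17, Sox18, Flt4, Lyve1 and Prox1. Of partner lists up to 4 called genes by smallest p are named, otherwise the 2 of smallest p, and Vegfa. Emcn, Ramp2, Cd93 and Egfl7 were added after their values were seen, as were levels of called partner genes.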

Additional observations from a re-analysis of the deposited data

Results flagged for a closer look

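In 5 of 54 groups of 9 libraries examined, 1 library stood apart from the rest of its group by Dixon's criterion. For independent values with a normal distribution the criterion flags about 1 in 20 groups. It was applied here to CPM without a log scale, and the groups share libraries, so that rate need not hold. All 5 were the highest of their group. Flt1 was at 515 CPM in NT replicate 4, with the next NT library at 387. Vwf was at 17.1 CPM in NCT replicate 9, with the next at 8.14, and that library is the one with Lipf at 9930 CPM. Sox17 was at 13.4 CPM in NCT replicate 7, with the next at 9.45. Adgrl4 was at 97.6 CPM in PL replicate 5, with the next lesion at 52.2. Tek was at 39.2 CPM in NCT replicate 3, with the next at 25.01.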

How the results depend on the processing

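The number of members past the threshold depended on the setting, and the directions in lesions mostly did not. In PL against NT the count was 3, with 5 in the Wald test of DESeq2 (adding Emcn and Ramp2), 1 after removing the libraries rich in Pth or Lipf (over 2000 CPM), and 0 in females only and with the adipocyte score as covariate. Over all genes the main fit called 445 of 14461 and the Wald test 1360 of 18653. Without the libraries rich in Pth or Lipf 95 of 14474 genes were called. In females only it was 6 of 14493 and with the adipocyte score 113 of 14461. Leaving out 1 mouse gave 0 to 4 members and 137 to 529 genes. The fit with no replicate block called 1 member, Sox17 (adjusted p = 0.0108), and 402 of 14461 genes. In NT against NCT the Wald test of DESeq2 called 1 member and 149 of 14213 genes. The median of 0.06 moved to 0.36 with the adipocyte score. It moved to -0.25 within the mouse number series that held 4 mice of each group (the shared series). In PL against NCT the count was 5, with 3 under no filter and with mouse number series as covariate, 2 without the libraries rich in Pth or Lipf, and 1 in females only, with the adipocyte score and within the shared series. Leaving out 1 library gave 2 to 7. Females only, the shared series and the fits without libraries rich in Pth or Lipf had fewer samples. In PL against NT the last of these left out mice 2, 7 and 9 whole. The cause of the shifts was not tested. Members that kept their direction under every alternative numbered 31 of 34 in PL against NT, over 19 alternatives. They numbered 24 of 34 in PL against NCT and 7 of 34 in NT against NCT, over 30 alternatives each. The sets differ, so these counts are not directly comparable, and they were not taken over all genes.

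Log2 fold changes that changed sign included the following. In NT against NCT with mouse number series as covariate, Pecam1 was at -0.012, Kdr at -0.052, Gpihbp1 at -0.29, Erg at -0.011, Adgrl4 at -0.066, Aplnr at -0.035 and Ramp2 at -0.21. Within the shared series, Pecam1 was at -0.34, Kdr at -0.26, Flt1 at -0.12, Plvap at -0.049, Gpihbp1 at -0.72, Erg at -0.11, Adgrl4 at -0.35, Podxl at -0.057, Aplnr at -0.34, Ramp2 at -0.46, Emcn at -0.11, Vegfa at -0.11, Ramp3 at -0.089, Klf4 at -0.0039, Ly6c1 at -0.063 and Stab1 at -0.031. With the adipocyte score Cdh5 was at 0.38, Cldn5 at 0.15, Lyve1 at 0.058 and Egfl7 at 0.0044. In females only Erg was at -0.092, Emcn at -0.0032 and Egfl7 at 0.036, and without the libraries rich in Pth or Lipf Egfl7 was at 0.083. Leaving out 1 library moved Kdr over -0.080 to 0.078, Gpihbp1 over -0.091 to 0.19, Ramp2 over -0.034 to 0.11, Erg over -0.054 to 0.20, Adgrl4 over -0.0035 to 0.19, Aplnr over -0.0018 to 0.28 and Egfl7 over -0.078 to 0.031.

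In PL against NCT Vwf was at 0.21 without the libraries rich in Pth or Lipf, at 0.079 in females only and at 0.64 with the adipocyte score. Flt1 was at -0.0023 in females only and at -0.038 with the adipocyte score, Cldn5 at 0.19 with that score and Plvap at -0.076 within the shared series. Leaving out 1 library moved Flt4 over -0.028 to 0.20, Flt1 over -0.064 to 0.092, Kdr over -0.17 to 0.0042 and Vwf over -0.56 to 0.0037. In PL against NT Vegfa was at -0.21 without the libraries rich in Pth or Lipf, at -0.042 with the adipocyte score, at -0.17 with the thyroid follicular score and at -0.0059 to 0.24 without 1 mouse. Over the alternatives of that comparison Eng ran from -0.25 to 0.19, Tie1 from -0.43 to 0.051 and Ecscr from -0.40 to 0.077. Scarce genes such as Sox18, Cldn5 and Prox1 were limited by depth.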
